A study of Homo sapiens with 5 samples.

Results

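The peaks described here are those found by ChIP-seq in HCT116 cells from which the target of the antibody had been removed. HCT116 is a human colon cancer cell line. One library was precipitated with an ATF3 antibody from ATF3-knockout cells (ATF3-KO), and the other with a p53 antibody from p53-knockout cells (p53-KO). The members are all 2231 peaks of the ATF3-KO list and all 7879 peaks of the p53-KO list, 10110 of the 123989 peaks in the 5 libraries of the series. A region was counted as shared where the peaks of both lists had at least 1 bp in common.

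Both knockout lines had received DMSO, the solvent control, for 4 h. The labels give homologous recombination with an AAV vector as the origin of the cells, and the methods of the study describe it for the ATF3-KO line, which was edited in an exon of ATF3, and name the p53-KO line as obtained from another laboratory. The other 3 libraries were an ATF3 precipitation from ATF3-WT cells with DMSO (ATF3-Ctrl), the same from ATF3-WT cells with 1.5 μM camptothecin (CPT, a topoisomerase I inhibitor) for 4 h (ATF3-CPT), and a p53 precipitation from p53-WT cells with the same dose of CPT (p53-CPT). All chromatin was fixed with 1 mM DSG, a protein-to-protein cross-linker, for 45 min and then with 1% formaldehyde for 10 min. Each condition had 1 library, so no difference below has a replicate check, and intervals cover counting error only. The knockout libraries differ in antibody, in cell line and in depth at once, and these cannot be told apart. Peak lists do not show whether the proteins were absent, and the loss of the targets was not checked here. For the ATF3-KO line, the study reports by Western blotting that ATF3 was absent with and without CPT. It also reports by ChIP-qPCR that the ATF3 promoter was bound in ATF3-WT but not in ATF3-KO cells.

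ATF3 is a stress-induced bZIP protein that binds the ATF/CRE element TGACGTCA and related AP-1 elements as a dimer. p53 is the tumour suppressor that activates genes of cell cycle arrest and apoptosis after DNA damage. A ChIP peak in cells without the target can have several sources known from textbooks. Repeats that are present in the genome in many more copies than in the assembly collect reads, open chromatin at promoters shears and cross-links well, and an antibody can bind other proteins. Centromeres consist of alpha satellite DNA, some copies of which hold the CENP-B box, and other pericentromeric satellites are built from the pentamer CATTC. Chromosomes end in tandem copies of TTAGGG, which shelterin proteins cover. CA and GA dinucleotide repeats (microsatellites) are scattered over chromosome arms.

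The following stretches of the hg19 (GRCh37) reference, all plus strand, show what lay under the peaks of each class. They lie in no annotated exon, except that the CTU2 stretch overlaps one. The first 3 are from shared regions. They lie at chr1:121485133-121485252 (the shared region whose poorer rank in the lists was the best), chr7:61969275-61969454 (capitals mark a match to the CENP-B box) and chr10:42596998-42597117 (capitals mark CATTC units on the other strand).
shared_beside_gap_1: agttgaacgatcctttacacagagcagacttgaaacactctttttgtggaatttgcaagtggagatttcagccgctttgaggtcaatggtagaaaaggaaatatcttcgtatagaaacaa
shared_with_cenpb: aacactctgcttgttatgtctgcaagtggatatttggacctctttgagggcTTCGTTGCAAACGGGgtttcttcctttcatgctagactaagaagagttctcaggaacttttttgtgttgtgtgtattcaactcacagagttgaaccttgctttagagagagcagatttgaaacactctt
shared_with_pentamer: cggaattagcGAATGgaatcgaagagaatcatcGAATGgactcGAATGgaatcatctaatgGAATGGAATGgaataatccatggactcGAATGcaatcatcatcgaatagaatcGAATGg

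The next stretches are from peaks found only in p53-KO. They are the highest-scoring such peaks that held a CA repeat or a GA repeat but not the other, at chr3:5281026-5281175 and chr18:22613522-22613671. Capitals mark runs of 3 or more CA units and of 3 or more GA units.
p53_KO_only_CA: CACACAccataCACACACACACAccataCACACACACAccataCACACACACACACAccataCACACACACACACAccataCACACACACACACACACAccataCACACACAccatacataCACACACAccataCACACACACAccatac
p53_KO_only_GA: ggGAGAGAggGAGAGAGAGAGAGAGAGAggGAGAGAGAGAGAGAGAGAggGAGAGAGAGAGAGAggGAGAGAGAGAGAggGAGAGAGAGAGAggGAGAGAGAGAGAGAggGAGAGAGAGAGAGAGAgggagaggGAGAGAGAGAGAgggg

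The last stretches are from promoter peaks found only in ATF3-KO, the 3 of highest score with an ATF/CRE element. They lie at chr16:88772805-88772834 (CTU2, an enzyme subunit of tRNA thiolation), chr12:132628966-132628995 (DDX51, an RNA helicase) and chr12:112279764-112279793 (MAPKAPK5, a stress-activated kinase). Capitals mark TGACGTCA.
ATF3_KO_only_CRE_CTU2: ctgcgccgcgcTGACGTCAtcgtagggcgc
ATF3_KO_only_CRE_DDX51: acgcgcagtggTGACGTCAcgggagcgccg
ATF3_KO_only_CRE_MAPKAPK5: gtccgggcctaTGACGTCAttagcgcagcg

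The ATF3-KO library held 12820520 tags, with 0.56% of them inside peaks, and the p53-KO library 1984941 tags, with 9.01% inside peaks. A single tag was worth 0.78 normalised tags (tags per 10000000) in ATF3-KO and 5.038 in p53-KO. The lowest listed value was 6.2 in ATF3-KO and 25.2 in p53-KO, so weaker background was not detectable. The findPeaks score, which counts at most 1 tag per position, began at 11 in ATF3-KO and at 6 in p53-KO.

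To separate common ChIP hotspots from background seen with a single antibody, the lists were first compared by position. A total of 229 regions were shared, each matching 1 peak of the other list, and they made up 10.3% (95% Wilson interval 9.07 to 11.6) of the ATF3-KO list and 2.91% (2.56 to 3.3) of the p53-KO list. The remaining 2002 ATF3-KO peaks and 7650 p53-KO peaks were listed in a single knockout library. The upper quartile of the ATF3-KO-only counts was 17.2 normalised tags, under the lowest value listed in p53-KO (25.2), so most of these peaks could not have been listed in p53-KO at an equal level. The matches were mostly complete, as 153 of the 229 ATF3-KO peaks lay wholly inside the p53-KO peak. The smallest match had 2 bp in common and the nearest pair without a match lay 3 bp apart. Only 53 unmatched ATF3-KO peaks had a p53-KO peak within 1000 bp.

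The shared fraction was greatest among the strongest peaks of both lists. Of the 10 highest-scoring peaks, 8 were shared in ATF3-KO and 9 in p53-KO. Of the 100 highest-scoring peaks, 52 (52.0%, 42.3 to 61.5) were shared in ATF3-KO and 25 (25%, 17.6 to 34.3) in p53-KO. Among peaks at or under the median score, the shared fraction was 4.37% in ATF3-KO (53 of 1214) and 1.64% in p53-KO (67 of 4088). With a score of at least 20 required in both lists, 10.6% of 707 ATF3-KO and 5.34% of 1405 p53-KO peaks were shared. Between the 500 highest-scoring peaks of each list, 8.6% were shared.

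**Figure D1:**
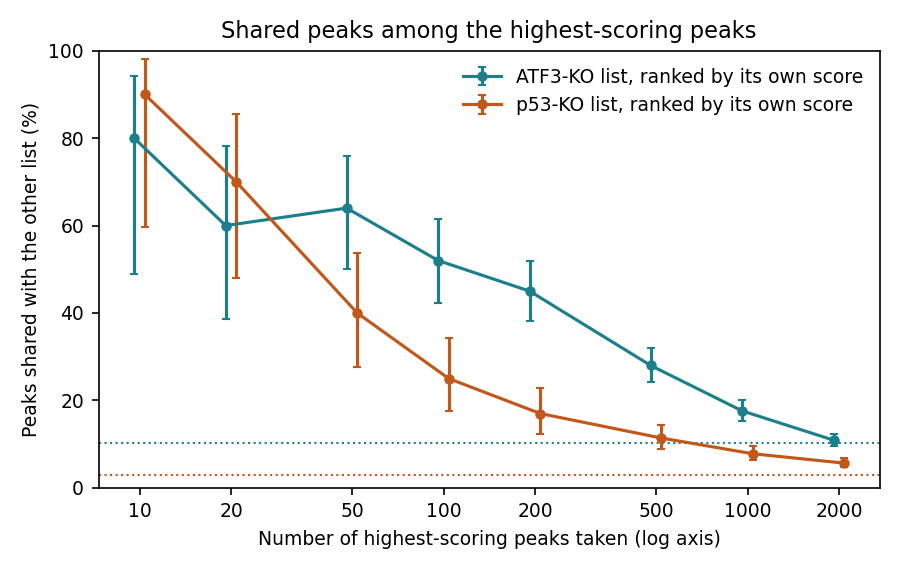
Percentage of peaks shared with the other knockout list (y axis) among the highest-scoring peaks of each list (x axis, log scale), with 95% Wilson intervals and the percentage over each whole list as a dotted line. The shared number is 8 (ATF3-KO) and 9 (p53-KO) among the first 10 peaks, and the percentage falls to 10.9 (ATF3-KO) and 5.65 (p53-KO) among the first 2000.

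The classes lay in different parts of the genome. Of the ATF3-KO-only peaks, 1264 (63.1%, 61.0 to 65.2) had their centre in a promoter, defined as the sequence within 2 kb of a TSS of any protein-coding gene. In contrast, promoters held 378 p53-KO-only peaks (4.94%, 4.48 to 5.45) and 6 shared regions (2.62%, 1.21 to 5.6). Shared regions lay mostly between genes (161 of 229, 70.3%), and 33 (14.4%) lay on sequences not placed on a chromosome. p53-KO-only peaks lay between genes (3924, 51.3%) or in introns (3195, 41.8%). Chromosome X, which makes up 5.39% of the sequence (its long gaps included), held 482 p53-KO-only peaks (6.30%) and 13 ATF3-KO-only peaks (0.649%). The share of promoters on chromosome X, the nearer background for the ATF3-KO-only class, was not taken.

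Shared regions were clustered beside the long assembly gaps, which mark centromeres and other unassembled heterochromatin. Of the 229 shared regions, 100 (43.7%, 37.4 to 50.1) lay within 1 Mb of a gap of at least 1 Mb, compared with 189 (9.44%) of the ATF3-KO-only and 111 (1.45%) of the p53-KO-only peaks. Such sequence makes up 1.64% of the assembled chromosomes. The 100 kb next to chromosome ends held 13 shared regions (5.68%), 20 ATF3-KO-only peaks (0.999%) and 21 p53-KO-only peaks (0.275%), and make up 0.167% of the sequence. A gap, an end or an unplaced sequence was the location of 145 shared regions (63.3%), 258 ATF3-KO-only peaks (12.9%) and 209 p53-KO-only peaks (2.73%).

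**Figure D2:**
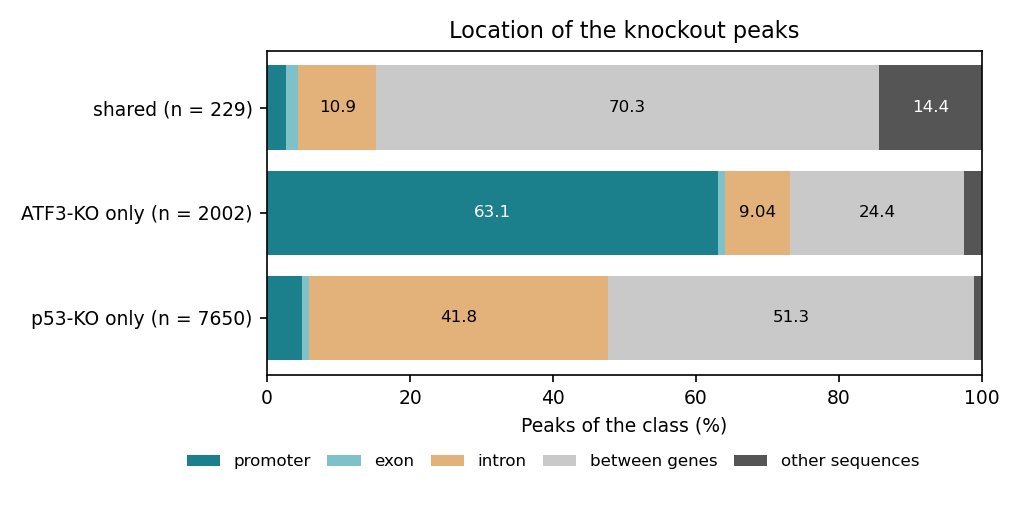
Percentage of each class of peaks (x axis) by location, as stacked bars: promoter, exon, intron, between genes and sequences outside chromosomes 1 to 22, X and Y. Promoters take up 63.1% of the ATF3-KO-only bar, and sequence between genes 70.3% of the shared bar and 51.3% of the p53-KO-only bar.

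The 5 shared regions with the best rank in both lists all lay beside long gaps and far from genes. The leading region, at chr1:121485094-121485292, lay 143 bp from the gap of chromosome 1. Its normalised tag count was 4721 (95% counting interval 4602 to 4841) in ATF3-KO and 5612 (5288 to 5952) in p53-KO, and it was 4300 in ATF3-Ctrl, 2129 in ATF3-CPT and 5549 in p53-CPT. The count was thus high in all 5 libraries and lowest in ATF3-CPT. These counts were not divided by peak width. ATF3-CPT peaks spanned 124 bp and ATF3-Ctrl peaks 126 bp. Those of ATF3-KO spanned 198 bp, those of p53-KO 310 bp and those of p53-CPT 318 bp. The part of width in the low ATF3-CPT count was not tested. The next regions, on chromosomes 7 (61969266), 19 (27731985) and 10 (42596959 and 42599684), ranged from 646 to 981 in ATF3-KO and from 942 to 1647 in p53-KO. The nearest protein-coding genes (FAM72B, ZNF722, UQCRFS1 and ZNF33B) had their TSS at least 528577 bp away.

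Shared regions did not differ between the libraries by a constant factor. The normalised tag count in p53-KO was at least 2-fold that in ATF3-KO in 139 of 229 regions (60.7%), and the reverse held in 3 regions (1.31%). The median ratio of p53-KO to ATF3-KO was 2.42, with quartiles of 1.54 and 4.30. Beside long gaps, where 99 shared regions lay apart from chromosome ends, the median ratio was 1.95 (quartiles 1.35 and 3.07). On unplaced sequences it was 2.23 (33 regions), and elsewhere 3.03 (84 regions). By sequence, the 48 regions with the CATTC pentamer had a median ratio of 2.25 (0.964 to 5.04) and the 23 with a CENP-B box 1.37 (0.645 to 4.49). Taken per base of peak, since ATF3-KO peaks were narrower (198 bp against 310 bp), the numbers past 2-fold were 83 and 10. The lists do not hold p53-KO values under 25.2, so a region weak in ATF3-KO is listed only with a high p53-KO value.

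Chromosome ends stood apart from the satellites. The 13 shared regions there had a median ratio of 219, from 3.22 to 324, and 11 of them were at least 20-fold higher in p53-KO. Over all shared regions, 22 had a ratio of normalised counts of at least 20, of which 1 lay beside a long gap. By the findPeaks score, which limits repeated positions, taken per library tag total, the median ratio was 41.5 at chromosome ends and 2.98 beside long gaps. The tag totals enter this ratio directly. The leading region on chromosome 1, with scores of 441 in ATF3-KO and 417 in p53-KO, had 6.11 by score and 1.19 by count. The highest p53-KO value of the whole list was at chr5:11106-11416, where p53-KO had 21386 and ATF3-KO 71.8 normalised tags, a ratio of 298 (95% counting interval 242 to 371). The region at chr1:10005-10315 had 8847 in p53-KO and 27.3 in ATF3-KO, a ratio of 324 (232 to 467). The ends of chromosomes 12 (133841602), X (155260096) and Y (59363123) had 62.4, 56.9 and 56.2 in ATF3-KO against 15421, 13970 and 12308 in p53-KO. All 9 shared regions with TTAGGG copies were at least 29.7-fold higher in p53-KO, with a median ratio of 247.

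The same regions were compared in libraries that had not been used to define them. Where both p53-CPT and ATF3-Ctrl had a peak, the median ratio of p53-CPT to ATF3-Ctrl was 184 at chromosome ends (12 of 13 regions) and 1.32 beside long gaps (68 of 99 regions). On unplaced sequences it was 0.99 (23 of 33 regions) and elsewhere 2.155 (52 of 84), against knockout medians of 2.18 and 2.47 in the same regions. These ratios were not taken per base, and the peak size was 318 bp in p53-CPT and 126 bp in ATF3-Ctrl. The pair also differs in CPT treatment. The ratio of at least 20 was seen in 10 regions at chromosome ends and in none beside long gaps. Across the 155 regions with both peaks, the Spearman correlation of this ratio with the knockout ratio was 0.638, as a description only, since pairs of libraries share an antibody and a depth class.

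High ratios were also found within chromosome arms, on sequence of low complexity. The 5 highest ratios, named after their values were seen, comprised chr7:157253949 near DNAJB6 (a ratio of 905), chr11:11268043 near CSNK2A3 (616), chr12:110824991 in an intron, nearest to the TSS of ANAPC7 (382), and chromosome ends near OR4F5 (324) and AC026369.1 (312). At chr7:157253949 the counts were 11.7 in ATF3-KO and 10590 in p53-KO, with 7026 in p53-CPT, 6.5 in ATF3-CPT and no peak in ATF3-Ctrl. The windows of all 18 high-ratio regions with full sequence had low complexity, that is, the number of different 6-base words divided by the number of word positions was under 0.5 (median 0.143).

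In the opposite direction, the 3 regions at least 2-fold higher in ATF3-KO lay in introns, and those given here were nearest to the TSSs of PCBD2 and COX6C. Their counts were 102 and 86.6 in ATF3-KO and 50.4 and 30.2 in p53-KO. The ratios were 0.493 (95% counting interval 0.231 to 0.936) and 0.349 (0.125 to 0.784).

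**Figure D3:**
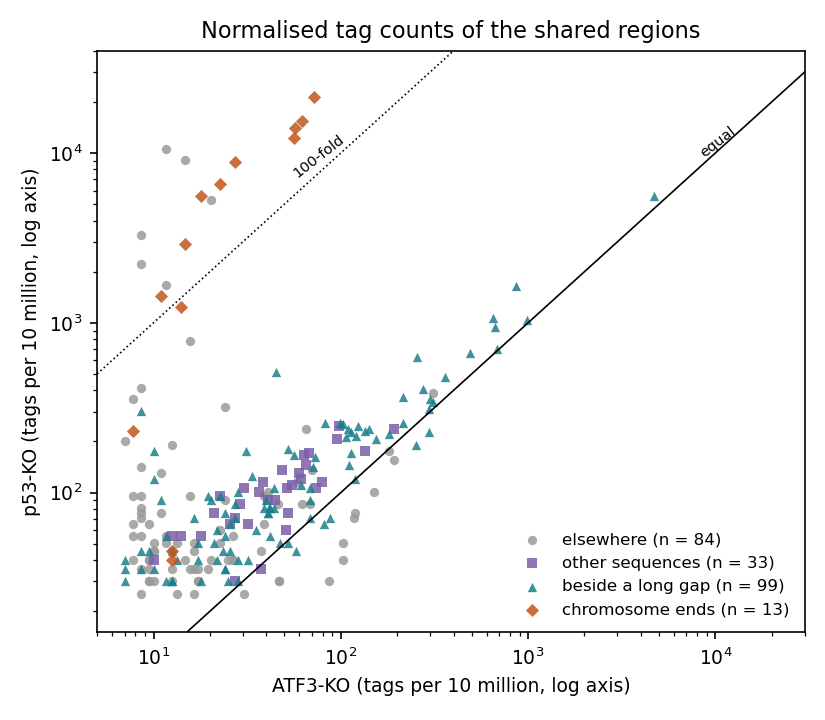
Normalised tag counts (tags per 10000000, log axes) of the 229 shared regions in ATF3-KO (x axis) and p53-KO (y axis), 1 point per region, by location, with lines of equal value and of 100-fold. Regions beside long gaps lie nearer to the line of equal value than chromosome ends do (median ratios 1.95 and 219). Of the former, 46 of 99 are at least 2-fold higher in p53-KO, and 9 of 13 chromosome ends lie above 100-fold.

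The groups of shared regions also differed in tag pattern. Regions beside long gaps had a median clonal fold change of 1.17 in ATF3-KO and 0.99 in p53-KO, and chromosome ends 0.91 and 0.88. These low values do not exclude repeated tag positions. The p53-KO peak at chr5:11106-11416 had a clonal fold change of 0.51, with 4245 tags at a score of 608. The median focus ratio was 0.766 in ATF3-KO and 0.767 in p53-KO beside long gaps, and 0.633 and 0.683 at chromosome ends. In score, regions beside long gaps were the stronger in ATF3-KO (median 37, against 23 at chromosome ends), and chromosome ends in p53-KO (229, against 18 beside long gaps).

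Only 6 shared regions lay in promoters. WDR74, whose promoter borders the U2 snRNA gene RNU2-2P, had 15.6 normalised tags in ATF3-KO, 95.7 in p53-KO, 37.1 in ATF3-Ctrl, 12.3 in ATF3-CPT and 97.8 in p53-CPT. SACM1L (a phosphoinositide phosphatase) had 7.8 in ATF3-KO and 65.5 in p53-KO, MTRNR2L1 (a nuclear copy of the humanin gene) 40.6 and 75.6, ADGRG1 (an adhesion receptor) 9.4 and 40.3, and MUC3A (a mucin) 16.4 and 35.3. These 5 counts were higher in p53-KO. However, the 95% counting interval of the ratio included equal counts for MTRNR2L1 (0.974 to 3.36) and MUC3A (0.773 to 5.26). The counts were not taken per base of peak. The remaining promoter, of RGPD2, a gene with near-identical copies, had 30.4 in ATF3-KO and 25.2 in p53-KO, a ratio of 0.829 (95% counting interval 0.255 to 2.10). SACM1L and RGPD2 had no peak in p53-CPT.

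Sequence was then read in 201-bp windows at the peak centres and in windows 1000 bp to the side. Of 192 shared regions with full sequence, 91 (47.4%, 40.5 to 54.4) were of low complexity, against 13.7% of the side windows. The share was 11.3% in ATF3-KO-only and 15.2% in p53-KO-only windows, but at a threshold of 0.7 it was 57.8% in shared and 49.4% in p53-KO-only windows. CATTC 2 times in a row was found in 24.5% (side windows 20.8%), the CENP-B box in 10.4% (4.37%) and TTAGGG 2 times in a row in 4.17% (0 of 183). All motifs were searched on both strands.

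ATF3-KO-only peaks had the sequence of CpG-rich promoters. Their median GC content was 65.2% (side windows 46.8%). The GC box GGGCGG, the Sp1-type promoter element, was found in 43.1% (40.9 to 45.3) of 1946 windows against 10.2% to the side. The ETS core CCGGAAG was found in 13.9% against 0.976%, and the ATF/CRE core TGACGTCA in 6.68% (5.65 to 7.88) against 0.103%. The AP-1 cores TGACTCA and TGAGTCA were found in 3.65% against 2.16%. The ATF/CRE core was found in none of 192 shared windows and in 2 of 7559 p53-KO-only windows (0.0265%, side windows 0.0662%).

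p53-KO-only peaks lay on dinucleotide repeats. At least 8 CA units in a row were found in 56.1% (55.0 to 57.3) of 7559 windows and at least 8 GA units in 34.7% (33.6 to 35.7), against 0.689% and 0.225% to the side. Either repeat was found in 6309 windows (83.5%), compared with 4.17% of shared and 0.463% of ATF3-KO-only windows. Both repeats lay together in 554 windows.

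**Figure D4:**
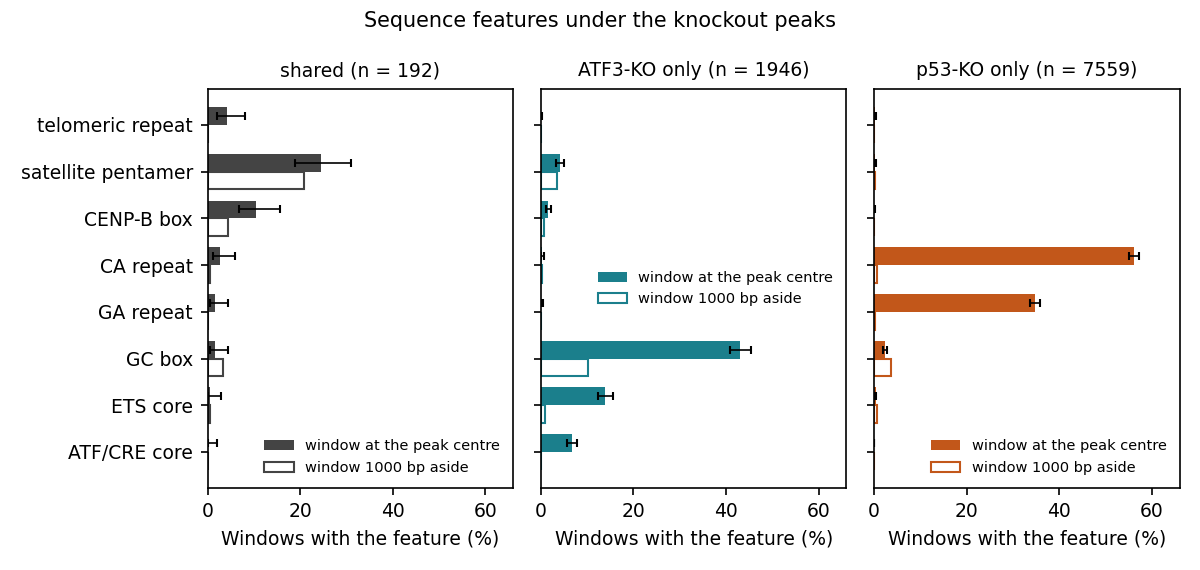
Percentage of windows with each sequence feature (x axis) at the peak centre (filled bars, with 95% Wilson intervals) and 1000 bp to the side (open bars), for each class. CA and GA repeats (56.1% and 34.7%) stand out in p53-KO-only peaks, and GC boxes (43.1%), ETS cores (13.9%) and ATF/CRE cores (6.68%) in ATF3-KO-only peaks.

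The repeats of the p53-KO-only peaks were not alike in strength. Peaks on GA repeats without a CA repeat had a median score of 15 (quartiles 9 and 24, 2066 peaks), and those on CA repeats without a GA repeat a median of 9 (7 and 12, 3689 peaks). The 1250 peaks with neither had a median of 10. A p53-CPT peak was present at 85.6% of the GA-only and 63.2% of the CA-only peaks. The peak on the CA repeat printed above had 524 normalised tags, the one on the GA repeat 1401.

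The highest-scoring p53-KO-only peaks included 2 in the mitochondrial genome, in the part that holds its control region. The peaks at chrM:16104-16414 and chrM:29-299 had 3184 and 2670 normalised tags in p53-KO, 4010 and 4543 in p53-CPT, 597 and 828 in ATF3-Ctrl, and 630 and 725 in ATF3-CPT. ATF3-KO had no mitochondrial peak. Other leading peaks had counts of 3305 at chr15:86440114 (nearest TSS KLHL25) and 2111 at chr6:469139 (IRF4). Their complexity was 0.112 and 0.138, and in p53-CPT they had 2158 and 1249.

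Promoter peaks found only in p53-KO were led by COL6A1 (a collagen VI chain, 862 normalised tags), NGB (neuroglobin, 977), PAXBP1 (741), CRYBB2 (a lens crystallin, 867) and HAUS3 (a spindle protein, 655). All 5 had a peak in p53-CPT, with values from 432 to 672. PAXBP1 also had weak ATF3 peaks, with 10.0 in ATF3-Ctrl and 11.6 in ATF3-CPT. NGB, PAXBP1 and CRYBB2 lay on GA repeats.

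The highest-scoring ATF3-KO-only peaks were again not promoters. The first, at chr1:567477-567675, had 441 normalised tags (405 to 479) in ATF3-KO, 178 in ATF3-Ctrl, 172 in ATF3-CPT and 234 in p53-CPT. Of its 25-base words, 92.6% also occurred in the mitochondrial genome of the reference. The next 4 lay beside long gaps on chromosomes 10 (42385116), 19 (27733140 and 27732615) and 11 (51582790), with 607, 447, 406 and 230 normalised tags, and the ATF3-Ctrl values were 810, 400, 493 and 202. A listed peak had to exceed its surrounding 10 kb by 4-fold, and in ATF3-KO these 4 did so by 4.21 to 5.94. The part of this filter in their absence from the p53-KO list was not tested.

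Promoter peaks found only in ATF3-KO were led by ANAPC2 (a subunit of the anaphase-promoting complex, 94.4 normalised tags, 78.3 to 113), TRIAP1 (a p53-regulated apoptosis inhibitor, 86.6), CTU2 (83.5), DDX51 (70.2) and RABEP1 (an endosome protein, 72.5). The values were higher in wild-type cells, except that the counting intervals of RABEP1 in ATF3-KO (58.6 to 88.9) and ATF3-Ctrl (79.0 to 113) overlapped. ATF3-Ctrl had 232, 274, 236, 149 and 95, and ATF3-CPT had 212, 206, 244, 167 and 120. In p53-CPT, TRIAP1 had 461 and ANAPC2 22.1, and the others had no peak.

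The ATF3-KO-only promoter peaks were centred on the TSS. Their median position was 32 bp upstream, and 1119 of 1264 (88.5%) lay within 200 bp. Their windows had a median GC content of 68.2%, and GC boxes were found in 58.8%, ETS cores in 19.95% and ATF/CRE cores in 8.79%. The 111 promoter peaks with an ATF/CRE core had a median score of 20 (quartiles 15 and 25.5), and those without it a median of 14 (12 and 20). All 111 had a peak in ATF3-Ctrl, as did 87.6% of those without the core.

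Outside promoters, the ATF3-KO-only peaks formed 2 sets. The 245 peaks near a long gap or chromosome end, or on unplaced sequence, had a median score of 17 and a median GC content of 38.8%, with no ATF/CRE core in 190 windows, and 22.45% of them had a peak in p53-CPT. The other 493 had a median score of 13 and a GC content of 53.7%, the ATF/CRE core was found in 3.85%, and 9.94% had a peak in p53-CPT. ATF3-Ctrl had a peak at 81.6% of the former and 64.3% of the latter, compared with 88.7% of the promoter peaks.

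Nuclear sequence that resembles mitochondrial DNA was found in 5 regions, taken as those with at least 50% of their 25-base words in the mitochondrial genome of the reference. Beside the ATF3-KO-only peak on chromosome 1 already given, they included a shared region near IRS2 (all of its words, 117 normalised tags in ATF3-KO), an ATF3-KO-only peak near EPHA6 (61.7%, 64.0 normalised tags) and a p53-KO-only peak at chr1:569518 (68.6%, 191 normalised tags in p53-KO). Tags from mitochondrial DNA and from these nuclear copies cannot be told apart in the lists.

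The strength of shared peaks was greater in both libraries. In ATF3-KO the median score was 29 (quartiles 17 and 59) for shared and 14 (12 and 20) for unshared peaks, and the median normalised tag count 27.3 and 10.9. In p53-KO the median score was 16 (9 and 34) and 10 (7 and 16), and the median count 85.6 and 60.5. A score of at least 100 was reached by 8.30% of the shared and 0.549% of the unshared peaks in ATF3-KO, and by 9.17% and 0.444% in p53-KO. An ATF3-KO peak could be shared only where p53-KO listed at least 25.2 normalised tags, while the ATF3-KO-only median was 10.9. The part of this floor in the ATF3-KO difference was not tested.

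The focus ratio, the fraction of tags placed on the expected side of the peak centre, separated the classes in p53-KO. Its median was 0.747 (quartiles 0.659 and 0.857) for shared and 0.917 (0.875 and 0.947) for p53-KO-only peaks. A focus ratio of at least 0.9 was found in 14.0% (10.1 to 19.1) of the shared and 63.9% (62.8 to 65.0) of the unshared peaks. In ATF3-KO the medians were 0.739 and 0.765, a difference within the overlap of the quartiles (0.636 to 0.867 and 0.688 to 0.838). The lowest focus ratios were 0.448 near WDR45B and 0.462 near DBNDD1 in ATF3-KO, and 0.409 near CAPN11 and 0.462 on an unplaced sequence in p53-KO. Except for the peak near WDR45B, these were shared regions.

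The clonal fold change is the ratio of expected to observed distinct tag positions, and it is high where tags occupy fewer positions than expected. Its direction differed between the libraries. In ATF3-KO the median was 1.01 (quartiles 0.90 and 1.24) for shared and 0.91 (0.89 and 0.98) for unshared peaks, and a value of at least 1.5 was found in 11.4% (7.87 to 16.1) and 2.05% (1.51 to 2.77). In p53-KO the median was 0.92 (0.87 and 1.07) for shared and 1.13 (0.99 and 1.39) for unshared peaks, and a value of at least 1.5 was found in 2.62% (1.21 to 5.6) and 17.7% (16.8 to 18.5). The filter on signal over the surrounding 10 kb had removed 1278 of 3540 candidate peaks in ATF3-KO (36.1%) and 1113 of 9574 in p53-KO (11.6%). The lists had also been cut at a clonal fold change of 2, which removed 31 candidates in ATF3-KO (0.876%) and 582 in p53-KO (6.08%). The highest values kept were 1.98 near USP9Y and 1.96 near ROCK1 in ATF3-KO, both shared, and 2.0 near SLC35G1 and near LNX2 in p53-KO, both unshared and on a GA and a CA repeat.

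The leading region on chromosome 1 had a low clonal fold change, 0.45 in ATF3-KO and 0.71 in p53-KO. A low value does not mean that few tags shared a position. In ATF3-KO this region had 6052 tags at a score of 441, which counts at most 1 tag per position. That was 13.7 tags per scored position, the highest of the shared regions in ATF3-KO (median 1.11). The fold over the surrounding 10 kb differed most in p53-KO, where its median was 12.6 (quartiles 6.55 and 22.7) for shared and 32.5 (22.8 and 55.3) for unshared peaks. In ATF3-KO it was 10.2 and 9.0. That order turned in ATF3-KO among peaks with a score of at least 20, where the medians were 12.9 for shared and 16.6 for unshared peaks.

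**Figure D5:**
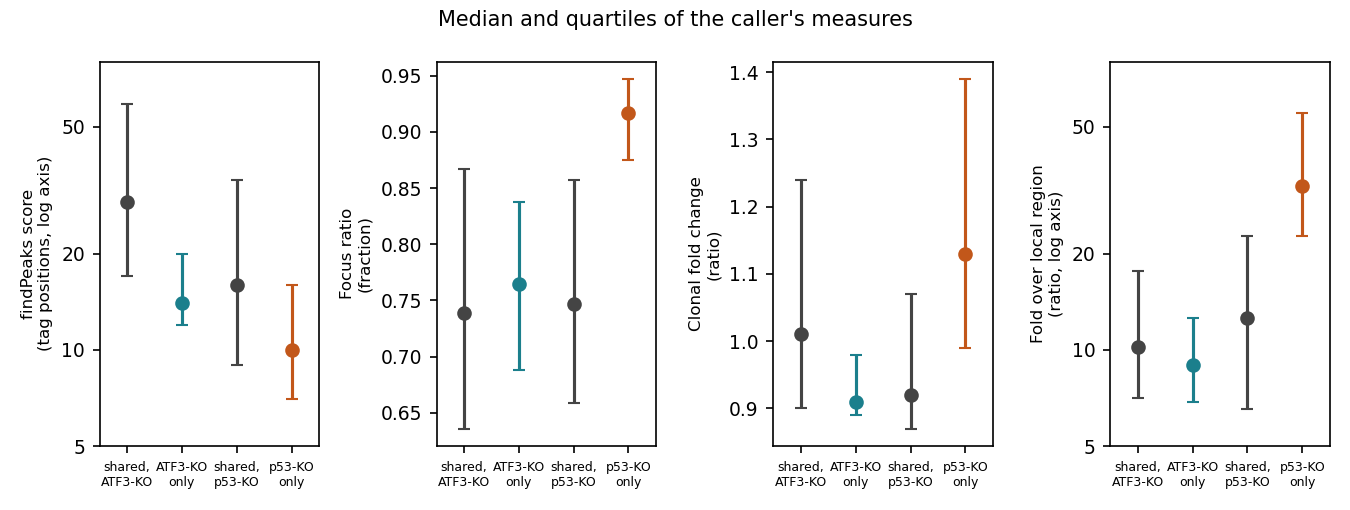
Medians (points) and quartiles (bars) of the findPeaks score, the focus ratio, the clonal fold change and the fold over the local region (score and local fold on log axes), for shared and unshared peaks in each library. Shared peaks have the higher score in both libraries (medians 29 against 14 and 16 against 10), while p53-KO-only peaks stand apart by a focus ratio of 0.917, a clonal fold change of 1.13 and a local fold of 32.5.

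Most of the background was found again in the libraries from cells that had the target. Of the ATF3-KO-only peaks, 1638 (81.8%, 80.1 to 83.5) had a peak in ATF3-Ctrl, 1653 (82.6%) in ATF3-CPT and 130 (6.49%) in p53-CPT. Of the p53-KO-only peaks, 5433 (71.0%, 70.0 to 72.0) had a peak in p53-CPT, 102 (1.33%) in ATF3-Ctrl and 170 (2.22%) in ATF3-CPT. In the unshared classes, the share found again was higher with the same antibody than with the other. However, the lowest value listed in p53-CPT was 18.9 normalised tags, above the upper quartile of the ATF3-KO-only counts (17.2). Most ATF3-KO-only peaks could thus not have been listed in p53-CPT at an equal level. The class was also defined by absence from a p53 library, so antibody and depth cannot be told apart here. The shared regions, taken as their ATF3-KO peaks, recurred in 83.0% in ATF3-Ctrl, 79.5% in ATF3-CPT and 77.3% in p53-CPT. Counting either peak, 144 of 229 (62.9%) had a peak in all 5 libraries. The ATF3-Ctrl and ATF3-CPT lists are long, with 33966 and 70702 peaks, so the whole ATF3-KO list matched 5.38% and 2.60% of them, while the whole p53-KO list matched 60.9% of the 9211 p53-CPT peaks.

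The peaks that did not recur were weaker and of other composition. The 364 ATF3-KO-only peaks without an ATF3-Ctrl peak had a median score of 12, against 15 for the 1638 with one, and 39.3% against 68.4% lay in promoters. The ATF/CRE core was found in 130 of the recurring peaks (8.16%) and in 0 of the others. The 2217 p53-KO-only peaks without a p53-CPT peak had a median score of 7, against 12 for the 5433 with one. CA repeats were found in 68.4% of the former and 51.1% of the latter, and GA repeats in 19.97% and 40.6%.

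Gene lists were read at promoters, beside the share of all 20136 protein-coding genes. A peak lay within 2 kb of a TSS in 1557 genes in ATF3-KO (7.73%) and in 405 genes in p53-KO (2.01%), and 15 genes had one in both, among them UBE4A, TLN2, TARBP2 and TRIM41 besides the shared promoters. A gene counts here with any of its TSSs, so both peaks need not overlap. Cytoplasmic ribosomal protein genes, which are highly transcribed, had an ATF3-KO peak in 23 of 79 (29.1%, 20.3 to 39.9) and a p53-KO peak in 1. They were led by RPL18 with a score of 57, and all 23 peaks were present in ATF3-Ctrl. Replication-dependent histone genes had no ATF3-KO peak and a p53-KO peak in 10 of 64 (15.6%, 8.72 to 26.4). These were 7 separate peaks with scores from 7 to 16, led by H3C10, and because histone genes are clustered and similar in sequence, 1 peak can serve several genes. All had a p53-CPT peak.

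In the other lists of protein-coding genes, 0 to 3 members had a peak in either library. Of 20 p53 target genes, FDXR (score 21) and BAX (12) had an ATF3-KO peak, and TP53I3 (score 15) had a p53-KO peak, which was also present in p53-CPT and ATF3-Ctrl. Of 9 genes that the study names for ATF3 binding, ATF3 itself had a p53-KO peak (score 13), and none had an ATF3-KO peak. Of 19 immediate early and AP-1 genes, FOSB (13) and FOSL1 (11) had an ATF3-KO peak, and ATF3 the p53-KO peak already given. Of 20 glycolysis and cytoskeleton housekeeping genes, PKM (12), LDHA (11) and NCL (11) had an ATF3-KO peak and 0 a p53-KO peak. Of 12 heat shock genes, DNAJB1 had a p53-KO peak (score 7) on a GA repeat. The 11 AP-1 dependent epithelial genes had no peak in either. Of 1900 small nuclear RNA genes, most of them pseudogenes, 12 (0.632%) had an ATF3-KO peak and 18 (0.947%) a p53-KO peak, and RNU2-2P had both. No background share was taken over non-coding genes, so these shares are not set against one.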

How the data were processed

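ChIP-seq peak lists of 5 HCT116 libraries were used, 1 per condition, grouped by their labels. The authors aligned reads to hg19 (GRCh37) with BWA 0.6.1 and ran findPeaks of HOMER 4.1 library by library. According to the headers, no input library was used, the FDR was 0.001, peaks exceeded the surrounding 10 kb 4-fold at a local p-value of 1e-04, and the clonal limit was 2. Each deposited list holds a normalized tag count, which is a signal per 10000000 tags of the library. The authors also deposited a focus ratio (a fraction), a findPeaks score, a fold over the local region and a clonal fold change (both ratios). The deposited p-values were used in no test.

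Members, lists and comparisons were chosen with earlier results of these data known. Overlaps of at least 1 bp, medians, shares with 95% Wilson intervals and counting intervals (Poisson for counts, binomial for ratios) were computed with Python 3.11.15, numpy 2.4.6, pandas 2.3.3, scipy 1.17.1 and pysam 0.24.0, and plotted with matplotlib 3.10.9. With 1 library per condition no test between conditions was possible. Tags repeated by PCR are not independent molecules, so intervals cover counting error only. A count of 3 tags corresponds to 2.34 normalised tags in ATF3-KO and 15.1 in p53-KO.

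Genes came from GENCODE 44 mapped to GRCh37 (basic transcripts) and sequences from the GRCh37 assembly. Windows were read on chromosomes 1 to 22, X and Y where no base was unknown. Named were the 5 highest-ranked peaks of each class (shared regions by the poorer of both ranks), overall and in promoters, the extremes of clonal fold change and focus ratio, list members with a peak and, chosen after their values were seen, the extremes of the ratio. The scripts were tested on simulated peaks with planted overlaps. Alternatives changed the overlap, score, promoter, complexity and scaling choices. Some items that this rule would name are not reported here.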

Additional observations from a re-analysis of the deposited data

How the results depend on the processing

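No paired analysis was possible because each group has 1 library, and for the same reason no library was left out. Of 82 alternative values over 31 results, 43 moved by less than their error or by under 1.5 times, 38 moved further and 1 reversed. The score of at least 20 for the medians, the scaling per base, and both scalings of the median ratios were chosen after seeing the data. With a score of at least 20, 75 regions were shared (10.6% of 707 and 5.34% of 1405 peaks), and among the 500 highest-scoring peaks of each list 43 were. With TSSs of all gene types, promoters held 8.73% of shared, 70.03% of ATF3-KO-only and 10.8% of p53-KO-only peaks, and the last share was 2.99% within 1 kb and 6.33% at a score of at least 20. The low-complexity share was 57.8%, 14.8% and 49.4% at a threshold of 0.7, and 39.2% of shared and 30.6% of p53-KO-only peaks at a score of at least 20.

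Differences between the class medians were taken as shared minus unshared peaks. At a score of at least 20 they were, in ATF3-KO, 25.8 for the normalised count, -0.066 for the focus ratio and -3.69 for the local fold. The last of these reversed. In p53-KO they were 37.75 for the count, 12.5 for the score, -0.245 for the focus ratio, -0.29 for the clonal fold change and -75.9 for the local fold. Without low-complexity peaks they were 30.8 (count), 24.5 (score) and 0.155 (clonal fold change) in ATF3-KO, and -22.99 (local fold) in p53-KO. Shares found again at a score of at least 20 in all lists were 56.05% of shared peaks in p53-CPT, 90.2%, 88.2% and 2.0% of ATF3-KO-only peaks in ATF3-Ctrl, ATF3-CPT and p53-CPT, and 0.763%, 1.53% and 80.4% of p53-KO-only peaks. Regions at least 2-fold higher numbered 83 (p53-KO) and 10 (ATF3-KO) per base of peak, and 0 in ATF3-KO by score. The median ratio beside long gaps was 2.98 by score and 1.25 per base, and at chromosome ends 41.5 by score. The cause of these shifts was not tested. At 1984941 tags, p53-KO regions under 25.2 normalised tags were not detectable.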
